A study of Mus musculus with 6 samples.

Results

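The genes described belong by name to families of enzymes that write and erase methyl and acetyl groups on histones and methyl groups on DNA. Some of them act mainly on other substrates, as stated where they are named. All were measured in bone marrow-derived macrophages, that is, marrow cells differentiated in culture with the growth factor M-CSF. The members were taken by name: the Kdm, Kmt, Kat, Hdac, Sirt and Setd series, the Tet genes, Dnmt1, Dnmt3a, Dnmt3b, Ezh1, Ezh2, Crebbp and Ep300, with at least 10 counts in at least 3 of the 6 libraries. Of the 36706 genes and features listed, 70 matched by name and 67 reached that level, each with at least 10 counts in all 6 libraries. The remaining 3 were near or at 0: Kdm4d (0, 0 and 2 counts untreated, and 0, 0 and 2 with treatment), Tet1 (2, 0 and 2 counts, and 1, 1 and 2) and the Y-linked demethylase gene Kdm5d (0 counts in all 6 libraries).

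mRNA was sequenced from macrophages of WT genotype in 2 groups of 3 libraries: cells with no treatment, and cells given interferon-gamma (IFN-γ), the cytokine by which lymphocytes activate macrophages, both labelled 3 h. The study's stated interest was the induction of ACOD1, which makes itaconate, by IFN-γ. The strain, sex and age of the mice and the dose of IFN-γ are not stated in those labels. Whether replicates are separate mice or cultures is not stated either, and the p-values therefore measure only the spread between these libraries, which may be technical.

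Lysine methyltransferases and demethylases set the methylation of histone tails, where some marks go with active promoters and others with silenced chromatin. Acetyltransferases loosen chromatin and provide docking sites for bromodomain proteins, and deacetylases and sirtuins remove the acetyl groups. DNA methyltransferases add methyl groups to cytosine in CpG dinucleotides, and TET enzymes oxidize them. In macrophages, several of these enzymes are known to take part in the inflammatory response, among them Kdm6b, which removes the repressive methylation of histone H3 lysine 27 laid down by Ezh1 and Ezh2.

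The libraries held 28133342 to 34233607 counts, so the 3 counts allowed by a count of 0 correspond to 0.0889 to 0.101 CPM (counts relative to library size, scaled by TMM, which assumes that most genes do not differ). The 10 macrophage markers summed to 20289.5 to 21885.5 CPM untreated and 21747.8 to 22966.4 CPM with IFN-γ, and the treatment check genes Irf1, Socs1, Gbp2, Cxcl9 and Acod1 rose. Markers of T and NK cells summed to 1.84 to 2.49 CPM over all libraries, with Cd3e at 0 counts, those of B cells to 3.42 to 4.97 CPM, and those of stromal, mast and erythroid cells to at most 1.69 CPM. Neutrophil markers summed to 79.5 to 104.9 CPM untreated and 137.1 to 149.9 CPM with IFN-γ, with 4 of 7 tested called higher. Dendritic cell markers summed to 1.84 to 2.19 and 5.44 to 6.05 CPM, with 2 of 5 called higher. Their part in the results was not tested. Xist was at 521.1 to 774.0 CPM, while Ddx3y and Uty, like Kdm5d, had no counts.

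With all libraries and TMM scaling, a minority of these genes was called, and most fitted differences were small. A gene that was not called may still differ. Of the 67 members, 17 were called at an adjusted p under 0.05 (edgeR's quasi-likelihood test, Benjamini-Hochberg adjustment over 12968 genes), or 25.4%, against 36.4% of all genes tested. There were 8 higher with IFN-γ (11.9%, against 19.6% of all genes) and 9 lower (13.4%, against 16.8%). Only 2 members rose by at least 1.5-fold, Kdm6b and Kat2b, and 3 fell by at least that factor, Hdac5, Kmt5c and Kat6b. Over all genes, 10.1% were called and at least 1.5-fold higher and 6.25% were called and at least 1.5-fold lower. The median log2 fold change of the members was 0.02, beside -0.01 for all genes tested. In cultures measured in bulk, fewer cells of a type and less RNA per cell cannot be told apart.

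**Figure D1:**
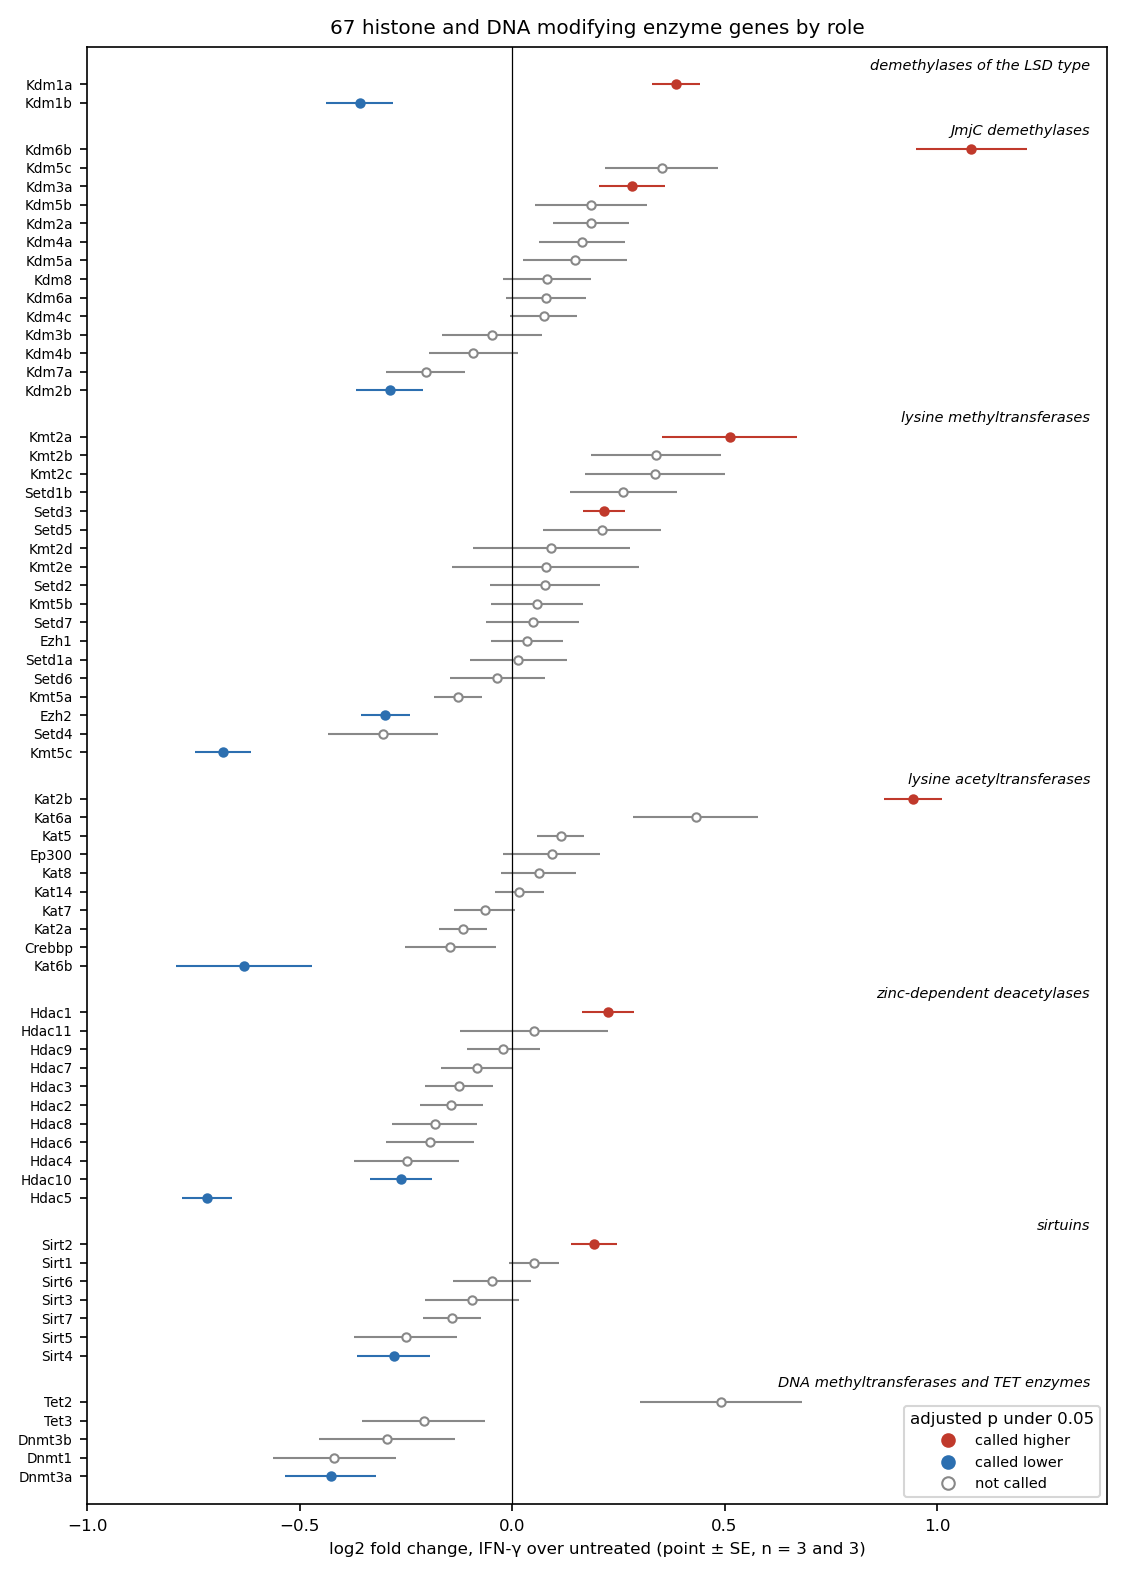
Log2 fold change (IFN-γ over untreated, horizontal axis) of each of the 67 genes, grouped by role, as the fitted value ± its standard error, n = 3 libraries per group. Red points are the 8 genes called higher, blue points the 9 called lower and open points the 50 not called. Most values lie near 0, with Kdm6b (1.08) and Hdac5 (-0.72) at the ends.

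The JmjC demethylases, iron-dependent oxygenases that remove histone methyl groups, had the largest rise of all members. Of 14, 2 rose (Kdm6b and Kdm3a), 1 fell (Kdm2b) and 11 were not called. Kdm6b, the inducible demethylase of histone H3 lysine 27, had 209, 153 and 228 counts untreated and 480, 409 and 369 with IFN-γ. That is 6.94, 5.17 and 6.76 CPM against 14.8, 13.3 and 11.9 CPM. Every treated library was above every untreated one. This is a 2.11-fold rise, with a log2 fold change of 1.08 ± 0.13 (standard error) and an adjusted p of 0.000352 (edgeR). Even so, Kdm6b remained a low transcript per unit length, at 1.24 TPM untreated and 2.40 TPM with IFN-γ (a within-library share that corrects for transcript length). Its relative Kdm6a, the X-linked demethylase of the same mark, was at 39.2, 31.1 and 38.8 CPM untreated and 39.9, 38.4 and 36.9 CPM with IFN-γ, a log2 fold change of 0.08 ± 0.09 that was not called. Kdm6a stood above Kdm6b in all 6 libraries on the TPM scale. The tables place Kdm6b on the minus strand at chr11:69289334-69311188.

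Kdm3a, a demethylase of histone H3 lysine 9, rose from 36.1, 30.1 and 35.0 CPM to 42.1, 40.4 and 40.7 CPM, or 1.22-fold (log2 fold change 0.28 ± 0.08, adjusted p = 0.0230, edgeR). Kdm2b, which binds unmethylated CpG islands and joins a Polycomb complex, fell from 30.8, 25.7 and 28.5 CPM to 23.0, 23.0 and 23.5 CPM (log2 fold change -0.29 ± 0.08, adjusted p = 0.0209, edgeR). The groups did not overlap for either gene, and both differences were small. Kdm2a, its close relative and the most abundant JmjC gene by TPM, was not called (0.19 ± 0.09, adjusted p = 0.147, edgeR). The 11 uncalled JmjC genes had log2 fold changes from -0.20 (Kdm7a) to 0.35 (Kdm5c). Kdm5c was called in 7 of 18 alternatives, among them DESeq2 (0.35, adjusted p = 0.0402, DESeq2) and without untreated replicate 1 (0.44, adjusted p = 0.0432, edgeR). The Kdm3a call was lost with total counts alone (0.11), with upper quartile scaling (0.14), and without untreated replicate 3 or any single IFN-γ library (0.25 to 0.30, adjusted p from 0.0593 to 0.101, edgeR). The Kdm2b call was lost on leaving out any library other than untreated replicate 2 (-0.23 to -0.30, adjusted p from 0.0612 to 0.0798, edgeR).

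Kdm3a was also the only called gene with letters of an interferon-gamma activated site (GAS) among those whose promoter could be searched. RefSeq promoters of assembly GRCm38.p6 were at hand for 55 of the 67 members, and the 250 bases before each start were searched on both strands. Among the called genes, Kdm6b, Hdac1 and Hdac10 had no promoter at hand and were not searched. TTCNNNGAA, the GAS motif, occurred for 5 of 55 members (9.09%), namely Hdac7, Kdm3a, Kmt2d, Setd7 and Sirt7, beside 8.13% of all 27025 genes with a promoter and 7.26% of the 10328 of these that were tested. GAAA followed by any 2 bases and GAAA, the interferon-stimulated response element, occurred for 1 of 55 (1.82%), Kat5, beside 3.46% of all and 3.47% of tested genes. With 5 and 1 matches, the shares of members are too coarse to compare closely with those elsewhere. A match is a string of letters, not a bound site. The Kdm3a match stands before the innermost of its 3 RefSeq starts, 219 bases upstream of it, where GENCODE M21 annotates no exon but a transcript body, so it is intronic to the longer transcripts. It is shown at chr6:71609325-71609383 of GRCm38.p6, minus strand, with the motif in capitals.
Kdm3a: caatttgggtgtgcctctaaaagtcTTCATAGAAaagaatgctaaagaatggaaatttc

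The LSD-type demethylases, flavin-dependent oxidases that act on histone H3 lysine 4, moved in opposite directions. Kdm1a, the subunit of the CoREST corepressor complex, was at 29.5, 28.3 and 29.3 CPM untreated and at 38.4, 38.2 and 37.2 CPM with IFN-γ. It rose 1.31-fold (log2 fold change 0.39 ± 0.06, adjusted p = 0.000977, edgeR). Kdm1b, its relative that is known to act on DNA methylation imprints in oocytes, was at 18.3, 17.5 and 18.0 CPM and then at 15.2, 13.9 and 12.9 CPM. It fell by 0.36 ± 0.08 on the log2 scale (adjusted p = 0.00849, edgeR). The libraries were tight for both genes, and neither pair of groups overlapped. Exons of Luzp1 on the other strand cover 18.2% of the Kdm1a exon length, with a mean of 1175.2 counts for Luzp1 and 1048.3 for Kdm1a, and Luzp1 was not called (log2 fold change 0.16). Exons of Dek on the other strand cover 9.54% of Kdm1b, with 4750.3 against 499.3 mean counts, and Dek was at a log2 fold change of 0.28 with no call. Whether the counting used strand is not stated in the labels, so part of these counts may belong to the neighbour. Exons on the other strand also cover 41.2% of Hdac8, 18.0% of Kdm2a and 13.6% of Kmt2e.

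Among the 18 genes grouped by name as lysine methyltransferases, 2 rose (Kmt2a and Setd3), 2 fell (Kmt5c and Ezh2) and 14 were not called. Setd3 is in this group by name only. Kmt5c, which trimethylates histone H4 lysine 20 in heterochromatin, fell furthest. Its counts were 623, 600 and 713 untreated and 428, 402 and 388 with IFN-γ, or 20.7, 20.3 and 21.1 CPM against 13.2, 13.1 and 12.5 CPM. The groups were far apart relative to their spread, and the log2 fold change of -0.68 ± 0.07 means that it fell by 37.6% (adjusted p = 9.11e-05, edgeR). Kmt5b, the other enzyme of that mark, was at a log2 fold change of 0.06 ± 0.11 and was not called. The tables place Kmt5c on the plus strand at chr7:4743091-4750513.

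Ezh2, the main catalytic subunit of Polycomb repressive complex PRC2, fell from 41.5, 42.9 and 42.8 CPM to 34.7, 33.2 and 35.6 CPM, so that it fell by 18.7% (log2 fold change -0.30 ± 0.06, adjusted p = 0.00423, edgeR). Ezh1, the alternative subunit that prevails in resting cells, was at 35.4, 30.4 and 35.6 CPM untreated and 36.6, 35.3 and 32.0 CPM with IFN-γ (0.03 ± 0.09, not called). The Ezh2 groups were separate while those of Ezh1 overlapped. The 10 proliferation markers moved beside Ezh2: 6 fell, 0 rose, their median log2 fold change was -0.28, and they summed to 2302 to 2423 CPM untreated and 2102 to 2186 CPM with IFN-γ. Their part in the Ezh2 result was not tested.

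Kmt2a, the histone H3 lysine 4 methyltransferase also called MLL1, rose 1.43-fold, from 33.5, 21.3 and 28.1 CPM to 45.0, 35.7 and 37.4 CPM (log2 fold change 0.51 ± 0.16, adjusted p = 0.0365, edgeR). The libraries scattered widely, and the lowest treated library lay just above the highest untreated one. Its relatives were not called: Kmt2b was at 0.34 ± 0.15, Kmt2c at 0.34 ± 0.16, Kmt2d at 0.09 ± 0.18 and Kmt2e at 0.08 ± 0.22 on the log2 scale. Kmt2b and Kmt2c were each called in 5 of 18 alternatives. Among these was the fit without untreated replicate 1, with Kmt2b at 0.46 (adjusted p = 0.0471, edgeR) and Kmt2c at 0.49 (adjusted p = 0.0436, edgeR). Setd3, an actin histidine methyltransferase and the most abundant gene of this group at 45.5 TPM, rose 1.16-fold, from 130, 128 and 125 CPM to 147, 150 and 147 CPM (log2 fold change 0.22 ± 0.05, adjusted p = 0.0103, edgeR). Setd7, which methylates lysine 4 of histone H3 and several transcription factors, was at 25.5, 20.3 and 24.2 CPM and 26.8, 23.7 and 21.8 CPM (0.05 ± 0.11, not called). Uncalled genes of this group ran from -0.30 (Setd4) to 0.34 (Kmt2b). The Kmt2a call was lost with total counts (0.34), upper quartile scaling (0.37), a filter of 5 CPM (0.48), and without untreated replicate 3 or any single IFN-γ library (0.39 to 0.58, adjusted p from 0.055 to 0.155, edgeR). The Setd3 call was lost with total counts (0.05), upper quartile scaling (0.07), without untreated replicate 3 (0.19, adjusted p = 0.068, edgeR) and without IFN-γ replicate 2 (0.21, adjusted p = 0.0634, edgeR). GENCODE M21 transcripts of Setd3 share 16.4% of their 50-base stretches with other genes, most of all Gm14026, which makes its count uncertain. Those of Setd1a share 51.2%, most of all with Gm49388.

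**Figure D2:**
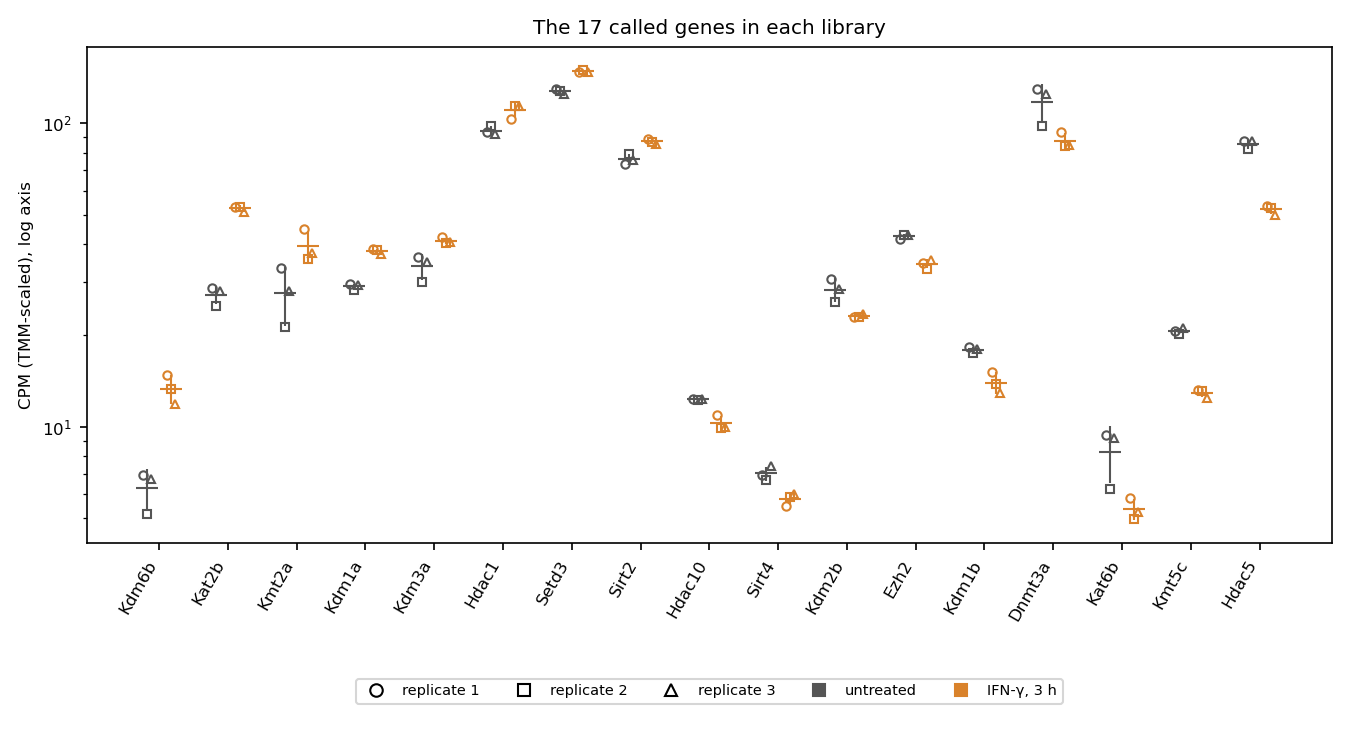
CPM of the 17 called genes in each library (vertical log axis), with circles, squares and triangles for replicates 1, 2 and 3. Horizontal bars are group means and vertical bars the SD (n = 3). For each gene the grey untreated and orange IFN-γ points do not overlap, and the group means lie furthest apart for Kdm6b, Kat2b and Hdac5.

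Of the 10 acetyltransferases, 1 rose (Kat2b), 1 fell (Kat6b) and 8 were not called. Kat2b, the acetyltransferase known as PCAF, works in the SAGA and ATAC coactivator complexes in exchange for its relative Kat2a (GCN5). It had 860, 742 and 948 counts untreated and 1727, 1630 and 1587 with IFN-γ, or 28.6, 25.1 and 28.1 CPM against 53.2, 53.0 and 51.1 CPM. The treated libraries differed from each other by little and lay far above the untreated ones. The rise was 1.92-fold (log2 fold change 0.94 ± 0.07, adjusted p = 1.58e-05, edgeR). Kat2a averaged 44.2 CPM before and 40.7 CPM after treatment (-0.12 ± 0.06, not called). The tables place Kat2b on the plus strand at chr17:53873802-53979749. Of its 50-base stretches, 7.28% occur in other genes, most of all in the pseudogene Kat2b-ps.

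Kat6b (MORF), an acetyltransferase of histone H3, fell from 9.40, 6.26 and 9.19 CPM to 5.82, 4.98 and 5.25 CPM (log2 fold change -0.63 ± 0.16, adjusted p = 0.0156, edgeR). It was the least abundant member per unit length, at 0.38 TPM over all libraries, and its exon length of 37946 bases was the longest. Its CPM was not the lowest of the members. Its relative Kat6a (MOZ), named here after its values were seen, was at 61.0, 40.2 and 51.1 CPM untreated and 76.4, 67.9 and 61.1 CPM with IFN-γ, separate groups that narrowly missed the call (0.43 ± 0.15, adjusted p = 0.0507, edgeR). Crebbp and Ep300, the general coactivators CBP and p300, were not called. Crebbp was at 23.8 ± 3.62 CPM untreated (mean ± SD, n = 3) and 21.5 ± 0.579 CPM with IFN-γ (-0.15 ± 0.11), and Ep300 at 65.1, 49.2 and 61.6 CPM and 69.5, 60.3 and 57.9 CPM (0.09 ± 0.11). Kat14, an ATAC subunit and the most abundant acetyltransferase gene by TPM, was at 0.02 ± 0.06 on the log2 scale. It shares 13.0% of its 50-base stretches with other genes, most of all Pet117. The Kat6b call was lost without untreated replicate 3 or IFN-γ replicate 2 or 3 (-0.56 to -0.62, adjusted p from 0.0567 to 0.062, edgeR). Kat6a was called in 9 of 18 alternatives, among them without untreated replicate 1 (0.58) or 2 (0.29), with no filter, by DESeq2 and by limma-voom.

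The zinc-dependent deacetylases, the HDACs, held the largest fall. Of 11, 1 rose (Hdac1), 2 fell (Hdac5 and Hdac10), 8 were not called, and 9 had a log2 fold change below 0 under TMM. Hdac5, a class IIa enzyme that shuttles between nucleus and cytoplasm as a corepressor, fell furthest of all members. Its counts were 2639, 2424 and 2942 untreated and 1738, 1621 and 1548 with IFN-γ, or 87.7, 82.0 and 87.2 CPM against 53.5, 52.8 and 49.8 CPM. The groups lay far apart, and the log2 fold change of -0.72 ± 0.06 means that it fell by 39.2% (adjusted p = 3.29e-05, edgeR). The tables place Hdac5 on the minus strand at chr11:102086573-102120998. Hdac10, a polyamine deacetylase, fell from 12.4, 12.2 and 12.4 CPM to 10.9, 9.93 and 9.98 CPM (-0.26 ± 0.07, adjusted p = 0.0233, edgeR).

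Hdac1, the catalytic subunit of the Sin3, NuRD and CoREST complexes, was the most abundant member of all at 108.3 TPM. It rose 1.17-fold, from 93.3, 98.3 and 92.2 CPM to 104, 114 and 114 CPM (0.22 ± 0.06, adjusted p = 0.0211, edgeR). Hdac2, its partner in the same complexes, was at 69.4, 81.1 and 70.8 CPM and 63.7, 67.4 and 69.2 CPM (-0.14 ± 0.07, not called). Hdac3, a class I deacetylase, was at 52.6, 63.4 and 53.4 CPM and 51.1, 51.4 and 52.8 CPM (-0.13 ± 0.08, not called). The uncalled HDACs ran from -0.25 (Hdac4) to 0.05 (Hdac11). The Hdac1 call was lost with total counts (0.06), upper quartile scaling (0.08) and without any of untreated replicates 1 and 3 and IFN-γ replicates 2 and 3 (0.20 to 0.21, adjusted p from 0.065 to 0.1, edgeR). The Hdac10 call was lost in DESeq2 and without the same libraries (-0.24 to -0.27, adjusted p from 0.0628 to 0.103, edgeR). Transcripts of Hdac1 share 35.3% of their 50-base stretches with other genes, most of all Gm10093, so its count is uncertain.

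The promoters of Kat2b and Hdac5 are shown because these genes had the largest rise and the largest fall among members with a RefSeq promoter. Each is the 250 bases before a start, with CpG dinucleotides, the targets of the DNA methyltransferases, in capitals. The Kat2b stretch lies at chr17:53566721-53566970 of GRCm38.p6 on the plus strand. It holds 6 CpG dinucleotides, overlaps an annotated exon in GENCODE M21 and is 40.8% G or C. Another RefSeq start of Kat2b, not shown, has 5 CpG dinucleotides in the 250 bases before it. The Hdac5 stretch, at chr11:102230173-102230422 on the minus strand, holds 12, lies outside annotated exons and is 60.8% G or C. Both are below the median of 18 over the 79 promoters of members, which ran from 0 to 56, beside a median of 15 for promoters of tested genes and 6 for all promoters. Neither stretch held a GAS or an interferon-stimulated response element.
Kat2b: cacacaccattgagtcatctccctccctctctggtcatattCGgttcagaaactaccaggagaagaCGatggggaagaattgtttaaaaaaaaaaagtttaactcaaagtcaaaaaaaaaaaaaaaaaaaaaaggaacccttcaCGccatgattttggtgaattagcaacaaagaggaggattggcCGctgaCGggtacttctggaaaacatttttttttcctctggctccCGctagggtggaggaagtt
Hdac5: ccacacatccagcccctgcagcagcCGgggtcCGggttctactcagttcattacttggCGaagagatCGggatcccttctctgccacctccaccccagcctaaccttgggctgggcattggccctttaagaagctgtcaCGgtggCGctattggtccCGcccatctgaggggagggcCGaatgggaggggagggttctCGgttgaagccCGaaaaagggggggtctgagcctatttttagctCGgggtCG

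Of the 7 sirtuins, the NAD-dependent deacylases, 1 rose, 1 fell and 5 were not called. Sirt2, a mainly cytoplasmic tubulin deacetylase and the most abundant sirtuin at 63.3 TPM, rose 1.14-fold, from 73.3, 79.5 and 75.7 CPM to 88.6, 86.9 and 85.7 CPM (0.19 ± 0.05, adjusted p = 0.0250, edgeR). Sirt4, a mitochondrial sirtuin, fell from 6.94, 6.70 and 7.44 CPM to 5.48, 5.89 and 6.02 CPM (-0.28 ± 0.09, adjusted p = 0.0358, edgeR). The groups were separate for both, and both differences were small. Sirt1, the nuclear deacetylase of p53 and NF-κB p65, was nearly level, at 28.5, 27.7 and 29.5 CPM and 29.7, 29.0 and 30.0 CPM (0.05 ± 0.06, not called). The Sirt2 call was lost with total counts (0.02), upper quartile scaling (0.04) and no filter (0.19), and on leaving out any library other than untreated replicate 2 (0.17 to 0.20, adjusted p from 0.0697 to 0.104, edgeR). The Sirt4 call was lost in DESeq2, with no filter, and on leaving out those same libraries (-0.25 to -0.31, adjusted p from 0.0703 to 0.121, edgeR).

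Among the 5 DNA methyltransferase and TET genes, 1 fell and 4 were not called, and 4 of the 5 had a log2 fold change below 0. Dnmt3a, the de novo methyltransferase, fell from 130, 98.0 and 125 CPM to 93.8, 84.3 and 84.6 CPM, so that it fell by 25.6% (-0.43 ± 0.11, adjusted p = 0.0151, edgeR). Dnmt1, the maintenance methyltransferase that copies methylation after replication, was at 161, 115 and 164 CPM and 126, 104 and 99.2 CPM (-0.42 ± 0.14, adjusted p = 0.0544, edgeR). One untreated library of Dnmt1 lay within the treated range and the other 2 lay above it. The 10 proliferation markers given with Ezh2 moved beside Dnmt1 too, and their part was not tested. Dnmt1 was called lower in 10 of 18 alternatives. Without untreated replicate 2 it was at -0.56 (adjusted p = 0.000973, edgeR), and without IFN-γ replicate 1 at -0.55 (adjusted p = 0.0435, edgeR). The Dnmt3a call was lost without untreated replicate 3 or IFN-γ replicate 2 or 3 (-0.39 to -0.40, adjusted p from 0.0547 to 0.0634, edgeR).

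Tet2 and Tet3, which oxidize methylated cytosine, stood on opposite sides of 0 and neither was called. Tet2, the TET gene known to restrain cytokine expression in macrophages, was at 23.4, 13.3 and 20.4 CPM and 30.7, 25.1 and 24.5 CPM (0.49 ± 0.19, adjusted p = 0.0787, edgeR). Its groups did not overlap. Tet3, named after its values were seen, was at 92.0, 61.3 and 83.6 CPM and 76.7, 65.3 and 62.9 CPM (-0.21 ± 0.15, adjusted p = 0.309, edgeR), with overlapping groups. Tet2 was called in 7 of 18 alternatives, among them DESeq2 (0.49, adjusted p = 0.0324, DESeq2) and without untreated replicate 1 (0.66, adjusted p = 0.0258, edgeR). Tet3 was called in 4 of 18, among them without untreated replicate 2 (-0.36, adjusted p = 0.00712, edgeR). Dnmt3b was low, with means of 2.57 and 2.10 CPM (-0.30 ± 0.16, not called).

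For chosen pairs of related enzymes, the ratio of their TPM was taken within each library, where the scaling of the library cancels. A library's trend on exon length does not cancel where the 2 genes differ in length. Kat2b stood at 0.511, 0.487 and 0.527 of Kat2a in the untreated libraries and at 1.06, 1.08 and 1.05 with IFN-γ, so that the less abundant gene of the pair drew level, a 2.09-fold change. Kdm6b stood at 0.124, 0.116 and 0.122 of Kdm6a and then at 0.259, 0.242 and 0.226. Kat6a over Kat6b went from 26.4, 26.1 and 22.6 to 53.3, 55.5 and 47.5, a 2.08-fold change, although Kat6a alone was not called. The level of this ratio rests on exon lengths of 9331 bases for Kat6a and 37946 bases for Kat6b. Kdm1a over Kdm1b went from between 2.73 and 2.75 to between 4.28 and 4.88. Within each of these pairs the treated ratios lay outside the untreated range.

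The same held for further pairs, among them Tet2 and Tet3, neither of which was called. Tet2 over Tet3 was 0.316, 0.270 and 0.304 untreated and 0.499, 0.478 and 0.484 with IFN-γ, a 1.64-fold change. Kmt5b over Kmt5c was 0.427, 0.344 and 0.419 and then 0.711, 0.605 and 0.672. The Ezh2 to Ezh1 ratio crossed from above 1 (1.03, 1.24 and 1.06) to below 1 (0.834, 0.827 and 0.978). Hdac1 over Hdac2 went from 1.85, 1.67 and 1.79 to 2.24, 2.32 and 2.28. Ratios of Crebbp to Ep300 (0.850-fold), Kmt2a to Kmt2b (1.12-fold), Dnmt3b to Dnmt3a (1.08-fold) and Hdac6 to Hdac10 (1.05-fold) overlapped between the groups. For the separate pairs the exact two-sided permutation test gave p = 0.1, the smallest that 3 against 3 allows, and 0.129 after Benjamini-Hochberg adjustment over the 18 pairs, so none could pass a threshold of 0.05. The pairs were chosen with the genes' values known, and no ratios of other gene pairs are given for comparison. How often related enzymes move apart therefore cannot be read from them.

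**Figure D3:**
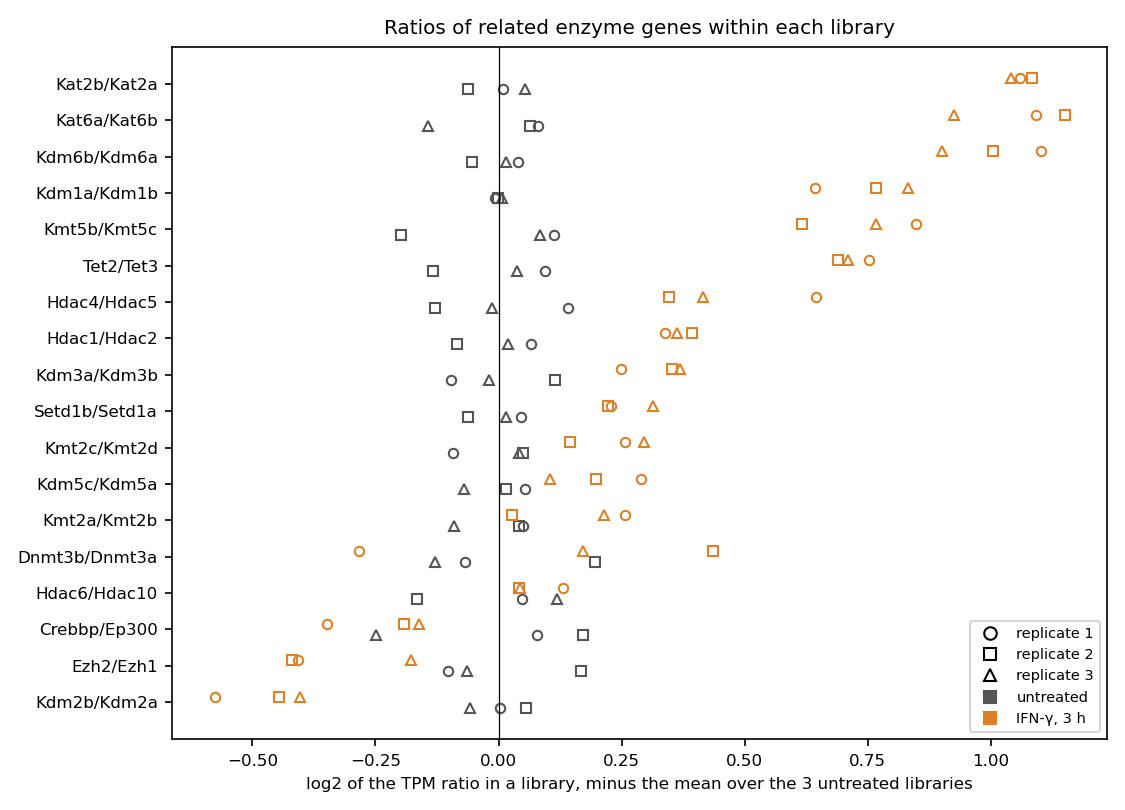
Log2 of the TPM ratio of each of 18 pairs of related genes in each library, minus the mean over the 3 untreated libraries (horizontal axis). Grey points are untreated and orange points IFN-γ libraries, with the shape giving the replicate. Kat2b/Kat2a, Kat6a/Kat6b and Kdm6b/Kdm6a lie about 1 unit to the right with IFN-γ, and Kdm2b/Kdm2a lies furthest to the left (0.720-fold).

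Summed by role on the TPM scale, transcripts of the HDACs went from 285.7, 271.3 and 288.1 TPM to 252.5, 250.1 and 249.9 TPM, with no overlap and a mean change of -11.0%. Those of the DNA methyltransferases and TET enzymes went from 93.3, 57.9 and 92.0 TPM to 69.9, 55.7 and 53.2 TPM, with overlapping groups (-26.5%). The sums overlapped for the sirtuins (-6.41%), the lysine methyltransferase group including Setd3 (-7.39%), the JmjC demethylases (-1.27%), the acetyltransferases (0.757%) and the LSD type (7.14%). Over all 67 genes the sum was 1057 ± 113 TPM untreated and 979.8 ± 51.5 TPM with IFN-γ (SD, n = 3 each). TPM carries no TMM scaling, and with total counts alone the median log2 fold change of all tested genes was -0.18 in place of -0.01. The HDAC sum is therefore to be read against that shift, which applies to every gene. Nor is it uniform: Hdac5 averaged 34.1 TPM untreated and 19.0 TPM with IFN-γ, and Hdac1 104.4 and 112.3 TPM.

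Untreated replicate 2 stood apart for long genes, and many of these enzymes are long. Its log2 CPM fell by 0.139 per doubling of exon length relative to the mean of the other untreated libraries. The other 5 libraries, each set against the rest of its own group, lay between -0.037 and 0.1, the latter for untreated replicate 1. The median exon length was 6302 bases for members and 3674 for all tested genes. Untreated replicate 2 was the lowest untreated library for 53 of 67 members (79.1%), against 45.6% of tested genes. Against the other untreated libraries its median was -0.59 on the log2 scale for the Kmt2 family, -0.49 for the DNA methyltransferases and TET enzymes, -0.07 for the HDACs and 0.09 for the sirtuins. Without it, the members called were 9 higher and 16 lower, against 24.0% and 21.1% of all genes, and the 8 and 9 called with all libraries kept their calls. Fewer lysine methyltransferases then had a log2 fold change above 0, 7 of 18 in place of 13.

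**Figure D4:**
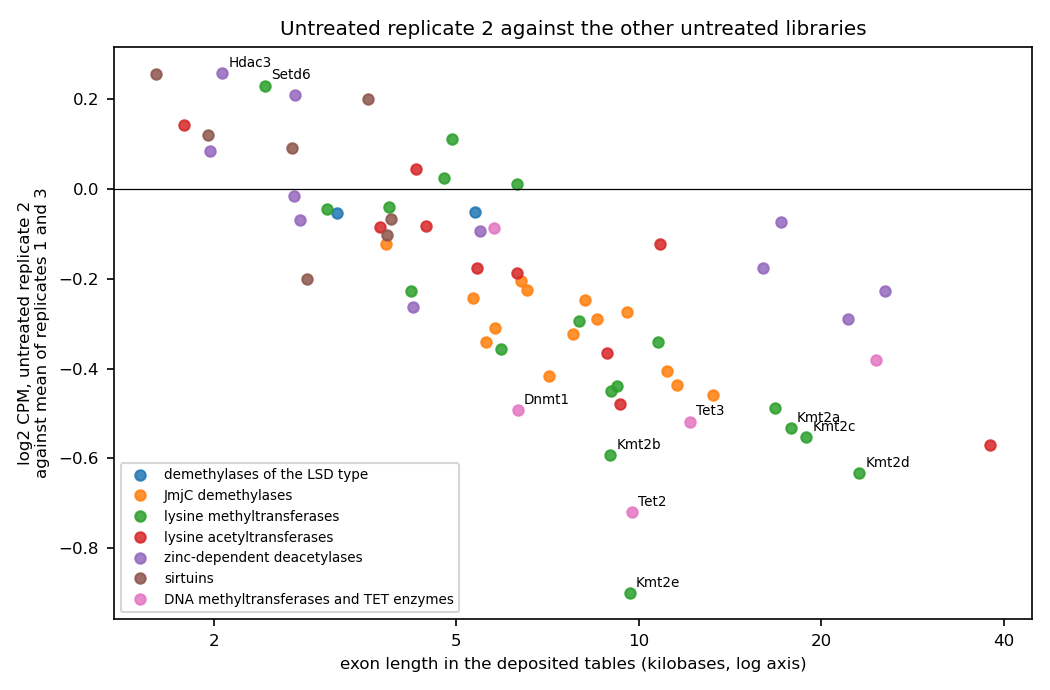
Log2 ratio of CPM in untreated replicate 2 to the mean of untreated replicates 1 and 3 (vertical axis) against exon length in kilobases (log axis), 1 point per gene, coloured by role. Of the 67 genes 54 lie below 0. The Kmt2 genes lie low, at exon lengths from 8974 bases (Kmt2b) to 23080 bases (Kmt2d), while Hdac8 (17153 bases) lies nearer the zero line.

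With each library's trend on exon length removed, 16 members were called higher and 13 lower, against 25.8% and 20.2% of all genes, and the 17 calls were kept. The genes added on the higher side were Kat6a, Kdm2a, Kdm5c, Kmt2b, Kmt2c, Setd1b, Setd5 and Tet2, and on the lower side Dnmt1, Hdac4, Kdm7a and Tet3. Of these, Kat6a had a log2 fold change of 0.42 (adjusted p = 0.00414), Kdm5c 0.33 (adjusted p = 0.00383) and Dnmt1 -0.42 (adjusted p = 0.00858), all by edgeR. This setting was added after the data were seen. Scaling moved the balance the other way: with total counts alone 3 members were higher and 24 lower, against 12.9% and 34.8% of all genes, and with upper quartile scaling 3 were higher and 23 lower, against 13.9% and 31.6%. The 15 members newly called lower with total counts include Hdac2, Hdac3, Crebbp and Dnmt1.

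There were 7 members called in the same direction in all 18 alternatives to the scaling, filter, test, length correction and set of libraries. Kdm6b kept a log2 fold change between 0.91 and 1.16, Kat2b between 0.77 and 0.98 and Kdm1a between 0.21 and 0.40. On the lower side, Hdac5 stayed between -0.89 and -0.69, Kmt5c between -0.85 and -0.66, Kdm1b between -0.53 and -0.30 and Ezh2 between -0.47 and -0.25. A further 11 members had groups that did not overlap and no call, with differences of 0.11 to 0.49 on the log2 scale. In all, the groups did not overlap for 28 of 67 members (41.8%), beside 50.1% of all genes tested.

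**Figure D5:**
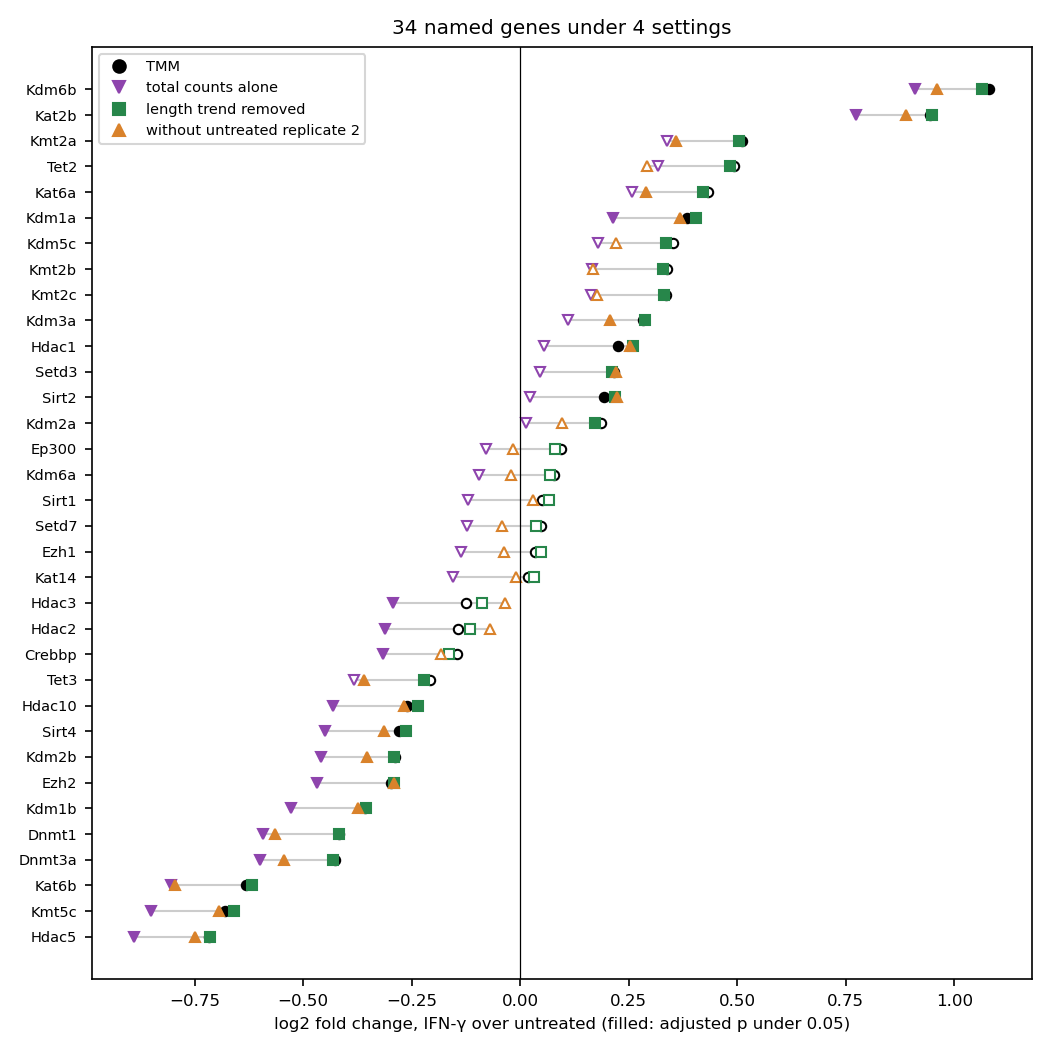
Log2 fold change of the 34 named genes (IFN-γ over untreated, horizontal axis) under TMM, total counts alone, the length trend removed, and without untreated replicate 2, with filled symbols where the adjusted p was under 0.05. Kdm6b, Kat2b and Kdm1a are filled on the right and Hdac5, Kmt5c, Kdm1b and Ezh2 on the left under all 4 settings.

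Genes for the proteins that carry these enzymes in complexes were called in both directions, beside 19.6% of all tested genes called higher and 16.8% called lower. Over these 5 lists and 4 further lists of related genes, 18 of 125 tested rose and 31 fell. Of 9 tested PRC2 partners, 2 rose and 2 fell, led by Jarid2, a PRC2 cofactor (log2 fold change 1.12 ± 0.07), which rose while Ezh2 fell. Of 18 PRC1 subunits, 3 rose and 5 fell, with Phc2 at 1.07 ± 0.06 and Cbx8, a reader of histone H3 lysine 27 methylation, at -1.52 ± 0.16. Of 12 partners of the Kmt2 and Setd1 enzymes, 0 rose and 2 fell, among them Wdr5 (-0.32 ± 0.06). Of 21 deacetylase corepressor genes, 5 rose and 4 fell, with Sap30, a subunit of the Sin3 complex, at 0.54 ± 0.10. Of 25 partners of acetyltransferases, 3 rose and 7 fell, with Ep400 at 0.65 ± 0.16 and Jade1 at -0.80 ± 0.07. The medians of these lists ran from -0.13 (PRC1) to 0.03 (corepressors), beside -0.01 for all genes.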

How the data were processed

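Per the labels' protocols, Trizol-extracted RNA was made into stranded mRNA libraries (KAPA). HISAT2 and mm10 are named in the submitters' processing notes. How reads were counted, with or without strand, is not given in the sources used here. The authors' deposited tables give a count, a TPM and an FPKM per gene, per the file headers. Counts were tested, TPM were used for levels and ratios, and FPKM were not used. Table coordinates did not match GRCm38 for any of the 67 members (0 with the same start and end), so they are printed as given, with the build unnamed.

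Groups came from the treatment label. Counts were filtered with filterByExpr (minimum count 10, minimum total 15) in edgeR 4.0.16, scaled by TMM and tested, two-sided, by glmQLFit and glmQLFTest over 12968 genes in R 4.3.3, with Benjamini-Hochberg adjustment and a threshold of 0.05. Standard errors were derived from the fold change and its F statistic. The fit was tested on simulated data, where 22% of 1.25-fold changes and 78% of 1.5-fold changes were recovered. Small changes can therefore be missed. The common biological coefficient of variation was 0.089, and no 2 replicates agreed within sampling noise. Total counts were 28133342 to 34233607, and limits for counts of 0 cover counting error only.

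Results of some genes on the lists are not reported here. Members and lists were chosen with earlier results of these data known. Named members are the 10 largest rises and falls among called genes with at least 1 CPM and separate groups (8 and 9 qualified), 16 genes named whatever their result, the most abundant gene by TPM of each role group, and Y-linked genes. Kat6a, Tet3, Kmt2b, Kmt2c and Kdm5c were named after their values were seen, as were members given only at the end of a range. Alternatives were other scalings (RLE, upper quartile, total counts), filters, DESeq2 1.42.0, limma-voom (limma 3.58.1), the robust fit, a replicate block, a threshold of 0.01 and each library left out. A lowess trend on exon length (span 0.5) was also removed from each library, alone and combined with the block or with 5 libraries. Python 3.11.15 with scipy 1.17.1 and matplotlib 3.10.9 served for permutations and plots.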

Additional observations from a re-analysis of the deposited data

How the results depend on the processing

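Among the called members, no alternative reversed a direction. Counts of members called moved as follows from 8 higher and 9 lower. There were 3 higher and 24 lower with total counts alone, 3 and 23 with upper quartile scaling, 3 and 4 at a threshold of 0.01, and 16 higher with the length trend removed. There were 17 higher (25.4%) with the length trend removed and the replicate block, beside 26.2% of all genes. With the length trend removed in 5 libraries (without untreated replicate 2), 17 were higher (25.4%) and 14 lower (20.9%), beside 28.2% and 21.1%. Leaving out 1 library gave 3 to 11 higher and 4 to 16 lower: 11 and 6 without untreated replicate 1, 9 and 16 without untreated replicate 2, 3 and 4 without untreated replicate 3, 5 and 8, 3 and 4, and 4 and 4 without IFN-γ replicates 1, 2 and 3. Without untreated replicate 2, 24.0% of all genes were called higher and 21.1% lower. Shares for the other left-out libraries are not given here, so member shifts in those fits cannot be told from shifts in every gene. Over all genes, total counts gave 1668 higher and 4516 lower in place of 2539 and 2176. Upper quartile scaling gave 4097 lower, and a threshold of 0.01 gave 1242 lower. RLE scaling, the robust fit and limma-voom left both member counts within 1.5 times.

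Among the 34 named genes, the log2 fold changes that reversed belong to genes with no call in any setting, and uncalled members that are not named also crossed 0 under these settings. With upper quartile scaling they were Ep300 -0.0533, Ezh1 -0.11, Kat14 -0.13, Kdm6a -0.0679, Setd7 -0.10 and Sirt1 -0.10, and with total counts Ep300 -0.0795, Ezh1 -0.14, Kat14 -0.15, Kdm6a -0.0941, Setd7 -0.12 and Sirt1 -0.12. Kat14 was -0.0121 with the filter of 5 CPM. Over the fits that left out 1 library, of the named genes Ep300 ran from -0.0177 to 0.17, Ezh1 from -0.037 to 0.0888, Kat14 from -0.0238 to 0.033, Kdm6a from -0.0209 to 0.13 and Setd7 from -0.0509 to 0.12, these 5 named genes all below 0 without untreated replicate 2 and all but Kdm6a below 0 without IFN-γ replicate 1. The cause was not tested. Same-numbered libraries deviated together with r = 0.615, 0.436 and -0.428 across genes, and differently numbered ones with r from -0.674 to 0.587. Deviations from the mean of 3 libraries are tied to each other, so these values cannot decide whether the numbers pair the samples. The labels do not state it. The fit with the replicate number as a block called 14 members higher and 12 lower (20.9% and 17.9%), beside 2723 and 2327 of the 12968 genes tested. With 3 libraries per group, calls as small as those of Sirt2 (0.19) and Setd3 (0.22) were lost when some single libraries were left out.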

Other observations

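Further genes of the same chemistry, from lists outside the name rule, were also called in both directions, beside 19.6% of all tested genes called higher and 16.8% called lower. The 3 BET proteins, which read acetylated histones, held 1 rise and 1 fall: Brd2 rose by 0.70 ± 0.06 and Brd3 fell by 0.27 ± 0.07 on the log2 scale (SE, edgeR), and together the 3 genes summed to 307.5 to 326.3 CPM untreated and 457.1 to 494.9 CPM with IFN-γ. Of 11 genes that act with DNA methylation, 1 rose and 5 fell. These include the stress-induced relatives Gadd45b and Gadd45a, which moved apart: Gadd45b rose by 0.99 ± 0.09 and Gadd45a fell by 1.39 ± 0.13. Of 19 other histone methyltransferase genes, 2 rose and 4 fell, with Nsd3, a methyltransferase of histone H3 lysine 36, at 0.58 ± 0.11 and Suv39h2, which acts on histone H3 lysine 9, at -0.60 ± 0.17. Of 7 tested other JmjC genes, 1 rose and 1 fell, Riox2 (0.20) and Riox1 (-0.33), both ribosomal oxygenases.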
